A study of Rattus norvegicus with 6 samples.

Results

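The genes described here are 10 members of the prostanoid system, chosen by symbol: the cyclooxygenases Ptgs1 and Ptgs2, the terminal synthases Ptgis, Ptges, Ptgds and Tbxas1, the breakdown enzyme Hpgd and the receptors Ptgir, Ptger2 and Ptger4. All 10 were found among the 19828 entries of the deposited table, and all 10 passed the filter on low values that left 15386 tested genes. The table held bulk RNA-seq values of total lung from Sprague-Dawley rats in 2 groups, Ahr-KO (Ahr-/-) and wild type (WT), with 3 libraries in each. Every sample of both groups carried the Sugen-Hypoxia (SuHx) treatment and the day 56 label, so the comparison was of genotype under SuHx. AHR, the product of Ahr, is a transcription factor switched on by small-molecule ligands such as dioxins and tryptophan metabolites. Sugen blocks VEGF receptors, and rats given it with low oxygen develop severe pulmonary hypertension. No group without SuHx was analysed here. The sources used here do not give the rats' age, the kind of Ahr edit, or whether each library came from a separate animal. The p-values therefore measure the spread between these libraries, which may be technical.

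Prostanoids are short-lived lipid signals made from arachidonic acid, which phospholipases release from membranes. Cyclooxygenases turn it into a common precursor, and terminal synthases make from that precursor prostacyclin, thromboxane and the prostaglandins of the E, D and F series. In the lung circulation prostacyclin relaxes vessels and keeps platelets quiet, while thromboxane constricts vessels and activates platelets. Drugs that act on the prostacyclin receptor are used in pulmonary arterial hypertension. The lung is also a main site where circulating prostaglandins are taken up and oxidised.

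Each value is a normalised read count per gene symbol, and libraries are named by group and by their number in the table, 0 to 2. The depth behind the values was estimated at 14.2 to 23.6 M (mega) reads in Ahr-KO libraries and 12.9 to 21.9 M in WT libraries, and library 2 was the shallowest of each group. One read was worth a value of 0.806 to 1.36 in Ahr-KO libraries and 0.821 to 1.4 in WT libraries. Ahr itself read 2399 to 3923 in Ahr-KO libraries and 2860.4 to 3395 in WT libraries, so a gene-level value did not check the genotype label. Its target Cyp1a1 did separate the groups, at 0.826 to 10.5 in Ahr-KO libraries and 23512 to 37694 in WT libraries. Groups were compared with limma-trend on log2(value + 1), with Benjamini-Hochberg adjustment over all 15386 tested genes and a threshold of 0.05. Log2 fold changes are Ahr-KO over WT, ± SE, and understate the change of genes with low values.

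Promoter sequence is shown for the member that changed and for both cyclooxygenases, whose levels behaved differently from each other. The sequences are from RefSeq (build GRCr8, not the build of the deposited values) and cover the 250 bases before the annotated start, on the strand of the gene. Capitals mark GCGTG, the core of the DNA element that the AHR complex binds, or its reverse complement CACGC where it lies on the opposite strand. Hpgd lies at chr16:39034832-39035081 (minus strand), Ptgs2 at chr13:64713813-64714062 (plus strand) and Ptgs1 at chr3:39981169-39981418 (plus strand).
Hpgd: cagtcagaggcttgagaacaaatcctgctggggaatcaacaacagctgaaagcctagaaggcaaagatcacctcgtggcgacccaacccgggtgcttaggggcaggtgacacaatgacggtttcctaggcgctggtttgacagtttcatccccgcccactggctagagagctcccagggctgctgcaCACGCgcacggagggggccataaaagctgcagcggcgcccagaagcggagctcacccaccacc
Ptgs2: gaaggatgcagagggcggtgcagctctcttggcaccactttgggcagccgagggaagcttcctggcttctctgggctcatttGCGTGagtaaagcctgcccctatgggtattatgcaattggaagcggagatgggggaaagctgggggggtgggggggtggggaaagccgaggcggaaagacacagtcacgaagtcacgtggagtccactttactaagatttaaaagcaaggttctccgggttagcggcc
Ptgs1: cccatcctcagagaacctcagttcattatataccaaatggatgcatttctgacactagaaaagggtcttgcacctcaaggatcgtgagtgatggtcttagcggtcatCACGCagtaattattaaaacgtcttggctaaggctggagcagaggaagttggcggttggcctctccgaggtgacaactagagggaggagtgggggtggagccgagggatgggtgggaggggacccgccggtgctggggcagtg
The core began 63 bases before the start of Hpgd and 143 bases before that of Ptgs1, on the opposite strand in both, and 168 bases before that of Ptgs2 on the gene's own strand. Among the 9 members matched in the RefSeq table these 3 held the core, and 25.9% of all 33469 promoter windows of the same length did. Only the Ptgs2 window also held the longer form TNGCGTG, of which GCGTG is a part, against 4.09% of all windows. A match describes these letters and is not a binding site.

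Of the 10 members, 1 was higher in Ahr-KO lungs past the threshold and 0 were lower (limma-trend). Among all tested genes 4.5% were called higher and 6.26% lower (692 and 963 genes, or 449 and 1314 with equal library totals and 436 and 1290 with limma-voom). A count of 1 in 10 is too small to be read against those shares. At an unadjusted p under 0.05, 5 members were lower (Ptgs2, Ptges, Tbxas1, Ptgir and Ptger4), where 14.6% of all tested genes were. In the same 5 members all Ahr-KO libraries lay below all WT libraries, as in 17.4% of tested genes, and in Hpgd all Ahr-KO libraries lay above, as in 17% of tested genes. The median log2 fold change was -0.30 over the 10 members and 0.01 over all tested genes. The lower members are described below by their values, since none passed the adjusted threshold. In a different model, limma-voom on estimated reads, 3 of them passed (Ptgs2, Tbxas1 and Ptger4). With equal library totals 1 did (Ptgs2). Under both settings the median log2 fold change of all tested genes was -0.08, lower than in the main fit. After quantile normalisation 0 passed.

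**Figure D1:**
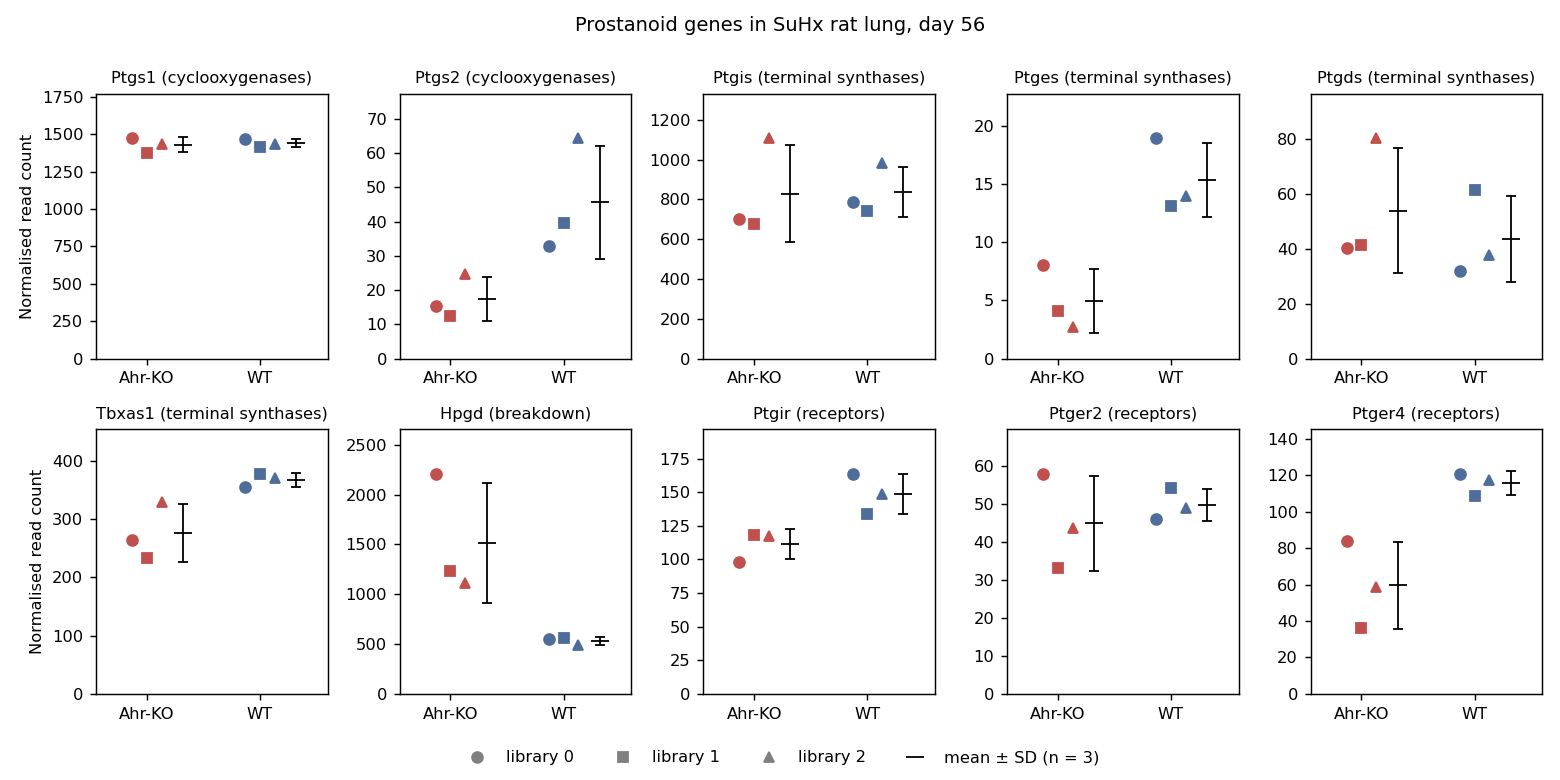
Normalised read count (y axis, from 0, a separate scale for each gene) of the 10 members in each Ahr-KO and WT library. Points are libraries, shaped by their number, and the bar beside them is the mean ± SD of 3 libraries. Hpgd lies higher in all 3 Ahr-KO libraries, Ptgs1 is level, and Ptgs2, Ptges, Tbxas1, Ptgir and Ptger4 lie lower in all 3.

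Hpgd, the dehydrogenase that starts the inactivation of E and F prostaglandins, rose in Ahr-KO lungs. It stood at 2212, 1229 and 1109 in Ahr-KO libraries 0, 1 and 2, against 552, 560.1 and 487 in WT libraries 0, 1 and 2. The groups did not overlap, and the Ahr-KO libraries were spread far more widely than the WT libraries, with library 0 the highest. The means were 1517 ± 605 in Ahr-KO and 533 ± 40.1 in WT (SD, n = 3 each). The log2 fold change was 1.44 ± 0.24 (95% interval 0.89 to 1.99, 2.71-fold, adjusted p = 0.013). The call held in each of the 6 fits that left out 1 library, with an adjusted p of 0.007 to 0.037, and the log2 fold change was 1.13 without Ahr-KO library 0. It was lost without both libraries numbered 2 (log2 1.57, adjusted p = 0.052).

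Markers of alveolar type 1 cells, the flat cells of the gas exchange surface, were also higher in the Ahr-KO group. Over all tested genes 4.5% rose and 6.26% fell past the adjusted threshold. These are the shares beside which each marker list count at that threshold, here and below, stands. Of 7 alveolar type 1 markers 5 rose and 0 fell, and none was at 0 in all libraries. Their summed value was 203825 to 224896 in Ahr-KO libraries and 119179 to 142498 in WT libraries, a ratio of group means of 1.63. Within the Ahr-KO group the order differed, since library 0 had the lowest of these sums and the highest Hpgd value. Per 1000 units of that sum, Hpgd stood at 10.9, 5.46 and 5.24 in Ahr-KO libraries 0, 1 and 2, against 4.63, 3.93 and 3.72 in WT libraries 0, 1 and 2. The ratio of the group means was then 1.76 and the groups still did not overlap. Of 8 capillary endothelium markers 4 rose and 1 fell, with sums of 39796 to 40789 in Ahr-KO libraries and 30402 to 44692 in WT libraries. Per 1000 units of that sum, Hpgd stood at 54.2, 30.5 and 27.9 in Ahr-KO libraries 0, 1 and 2, against 13, 12.5 and 16 in WT libraries 0, 1 and 2, and the ratio of the group means was 2.71 with no overlap. Plvap, the marker that fell, was the largest part of the sum, with means of 16863 in Ahr-KO and 27116 in WT. The 4 that rose were Car4, Gpihbp1, Kit and Prx. Their ratios of group means were 2.39, 3.56, 3.09 and 2.44, against 2.85 for Hpgd, and the other 3 markers did not pass. The ratio to the sum therefore does not show how Hpgd moved relative to the markers that rose. These ratios to marker sums were chosen after the values were seen. In bulk tissue more cells of a type and more RNA per cell cannot be told apart, and the part of these cell types in the Hpgd value was not tested.

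The 3 tested genes with the pattern closest to Hpgd over the 6 libraries, by root-mean-square difference of centred log2 values among 12185 genes with a mean of at least 50, were Fam126a (0.179), Sult1a1 (0.224) and Fam107a (0.236). Fam126a stood at 859, 494 and 429.7 in Ahr-KO libraries 0, 1 and 2, against 166, 206 and 222 in WT libraries 0, 1 and 2. Sult1a1, a sulfotransferase, stood at 9120.1, 5879 and 6398 in Ahr-KO libraries 0, 1 and 2, against 2928, 3310.4 and 3251 in WT libraries 0, 1 and 2. Fam107a stood at 1183, 607 and 797 in Ahr-KO libraries 0, 1 and 2, against 247, 246 and 236 in WT libraries 0, 1 and 2. Each of the 3 was highest in Ahr-KO library 0, as Hpgd was. This follows from choosing them by their likeness to Hpgd and is not a separate result. The transporter Slco2a1, which carries prostaglandins into cells for oxidation, stood at 18914, 15621 and 17446 in Ahr-KO libraries 0, 1 and 2, against 14848, 13935 and 15741 in WT libraries 0, 1 and 2. Its groups overlapped (log2 0.22 ± 0.11, adjusted p = 0.23).

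The cyclooxygenases differed in how they behaved. Ptgs1, the constitutive form found in platelets and many other cells, stood at 1476, 1379 and 1439 in Ahr-KO libraries 0, 1 and 2, against 1467, 1417 and 1439 in WT libraries 0, 1 and 2. The groups overlapped, and the log2 fold change of -0.01 ± 0.08 had a 95% interval of -0.19 to 0.17 (adjusted p = 0.95). Ptgs2, the form induced by inflammation and growth factors, stood at 15.3, 12.4 and 24.6 in Ahr-KO libraries 0, 1 and 2, against 33, 39.4 and 64.3 in WT libraries 0, 1 and 2. All 3 Ahr-KO libraries lay below all 3 WT libraries, and library 2 was the highest in each group. The means were 17.4 ± 6.35 in Ahr-KO and 45.6 ± 16.6 in WT (SD, n = 3 each). The log2 fold change of -1.34 ± 0.37 (95% interval -2.19 to -0.49) did not pass (adjusted p = 0.057). With 1 library left out it ranged from -1.60 to -1.06 (adjusted p of 0.079 to 0.17) and passed in 0 of 6 fits. After quantile normalisation it was -1.04 (adjusted p = 0.12). It rested on few reads, an estimated 52 over the Ahr-KO libraries (exact Poisson 95% interval 38.8 to 68.2) and 127 over the WT libraries (106 to 151), intervals that cover counting error only. The log2 ratio of Ptgs2 to Ptgs1 within a library, which no scaling of whole libraries can move, was -6.59, -6.80 and -5.87 in Ahr-KO libraries 0, 1 and 2, against -5.48, -5.17 and -4.48 in WT libraries 0, 1 and 2. The Ahr-KO ratios lay below the WT ratios, with a difference of means of -1.38. Since Ptgs1 was level, this difference restates that of Ptgs2, from the same few reads, and is not a separate result.

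**Figure D2:**
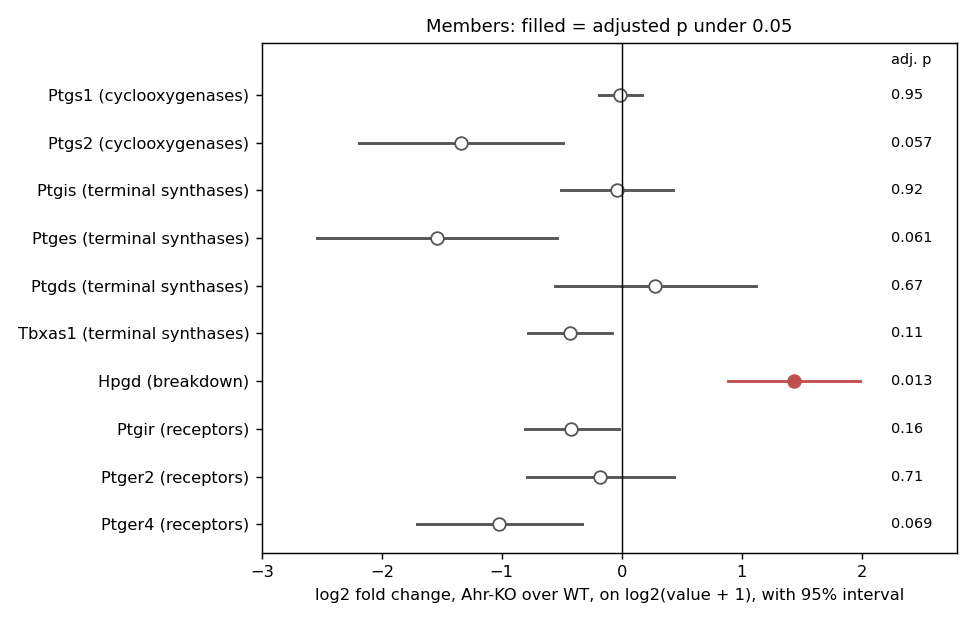
Log2 fold change of each member (x axis, Ahr-KO over WT on log2(value + 1)) with its 95% interval as a line and the adjusted p at the right. The filled point is the member past the threshold, Hpgd at 1.44, and Ptgs2 (-1.34), Ptges (-1.54) and Ptger4 (-1.02) are the lowest of the open points.

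The terminal synthases decide which prostanoid a cell makes. Ptgis, the prostacyclin synthase of vessel wall cells, stood at 701, 677 and 1108 in Ahr-KO libraries 0, 1 and 2, against 787, 742 and 982 in WT libraries 0, 1 and 2. The groups overlapped, with library 2 the highest of each (log2 -0.04 ± 0.20, 95% interval -0.51 to 0.43, adjusted p = 0.92). Smooth muscle markers had 0 of 8 members past the threshold, with sums of 41316 to 60240 in Ahr-KO libraries and 32580 to 44589 in WT libraries. At an unadjusted p under 0.05 (limma-trend) 3 were higher (Myh11, Tagln and Lmod1) and 0 lower. In these 3 all Ahr-KO libraries lay above all WT libraries, as in 17% of tested genes.

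Tbxas1, the thromboxane synthase of platelets and macrophages, stood at 265, 233 and 330.1 in Ahr-KO libraries 0, 1 and 2, against 355, 379 and 371 in WT libraries 0, 1 and 2. All 3 Ahr-KO libraries lay below the WT libraries, whose values were close together. The log2 fold change of -0.43 ± 0.15 (95% interval -0.78 to -0.08) did not pass (adjusted p = 0.11). Macrophage and monocyte markers had 2 of 8 tested members lower (C1qa and C1qb) and 0 higher, with sums of 9378 to 15337 in Ahr-KO libraries and 14080 to 17449 in WT libraries. At an unadjusted p under 0.05 (limma-trend) 5 were lower and 1, Csf1r, was higher, with all its Ahr-KO libraries above the WT libraries. Among all tested genes 14.6% were lower at that unadjusted p, the share for the platelet count below too. Csf1r and Mrc1 made up most of the sums. Mrc1 stood at 6383, 2033 and 2417 in Ahr-KO libraries 0, 1 and 2, against 3351, 4362 and 6116 in WT libraries 0, 1 and 2. Marco, a macrophage scavenger receptor, was listed at 0 in all 6 libraries. Per 1000 units of the macrophage sum, Tbxas1 stood at 17.3, 24.9 and 31.3 in Ahr-KO libraries 0, 1 and 2, against 25.2, 25.6 and 21.2 in WT libraries 0, 1 and 2. On that scale, which was chosen after the values were seen and moves with Csf1r and Mrc1, the groups overlapped. The part of macrophages in the Tbxas1 value was not tested. Platelet markers had 0 of 5 tested members past the threshold, with sums of 497 to 664 in Ahr-KO libraries and 463 to 713 in WT libraries. Itga2b and Itgb3 made up most of these sums. At an unadjusted p under 0.05 (limma-trend) 1, Pf4, was lower. It stood at 90.3, 79.3 and 95.5 in Ahr-KO libraries 0, 1 and 2, against 104, 172 and 122 in WT libraries 0, 1 and 2.

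The log2 ratio of Ptgis to Tbxas1, the synthases of prostacyclin and thromboxane, was 1.40, 1.54 and 1.75 in Ahr-KO libraries 0, 1 and 2, against 1.15, 0.97 and 1.41 in WT libraries 0, 1 and 2. The means were 1.56 ± 0.17 in Ahr-KO and 1.18 ± 0.22 in WT (SD, n = 3 each), and WT library 2 lay just above Ahr-KO library 0. The groups therefore overlapped by 1 library.

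Ptges, the inducible synthase of prostaglandin E in inflamed tissue, stood at 8.06, 4.13 and 2.73 in Ahr-KO libraries 0, 1 and 2, against 19, 13.1 and 14 in WT libraries 0, 1 and 2. All 3 Ahr-KO libraries lay below the WT libraries, but the values came from an estimated 17 reads over the Ahr-KO libraries (exact Poisson 95% interval 9.9 to 27.2) and 45 over the WT libraries (32.8 to 60.2). The log2 fold change of -1.54 ± 0.43 (95% interval -2.54 to -0.54) did not pass (adjusted p = 0.061). Over the 6 fits with 1 library left out it lay between -1.89 and -1.25, with an adjusted p of 0.04 to 0.17, and passed in 1, the one without Ahr-KO library 0. The other synthases of prostaglandin E in the table, Ptges2 and the co-chaperone gene Ptges3, had log2 fold changes of 0.08 ± 0.11 and -0.06 ± 0.13 (adjusted p = 0.69 and 0.82). Set against the breakdown enzyme, the log2 ratio of Ptges to Hpgd was -8.10, -8.22 and -8.67 in Ahr-KO libraries 0, 1 and 2, against -4.86, -5.41 and -5.12 in WT libraries 0, 1 and 2. The groups did not overlap, and the difference of means was -3.20 (SD 0.30 in Ahr-KO and 0.28 in WT). It combines the lower Ptges and higher Hpgd values given above and is not a separate result. Ptges had an estimated 10, 5 and 2 reads in Ahr-KO libraries 0, 1 and 2. With so few reads the SD of 3 libraries is a weak measure of the spread.

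**Figure D3:**
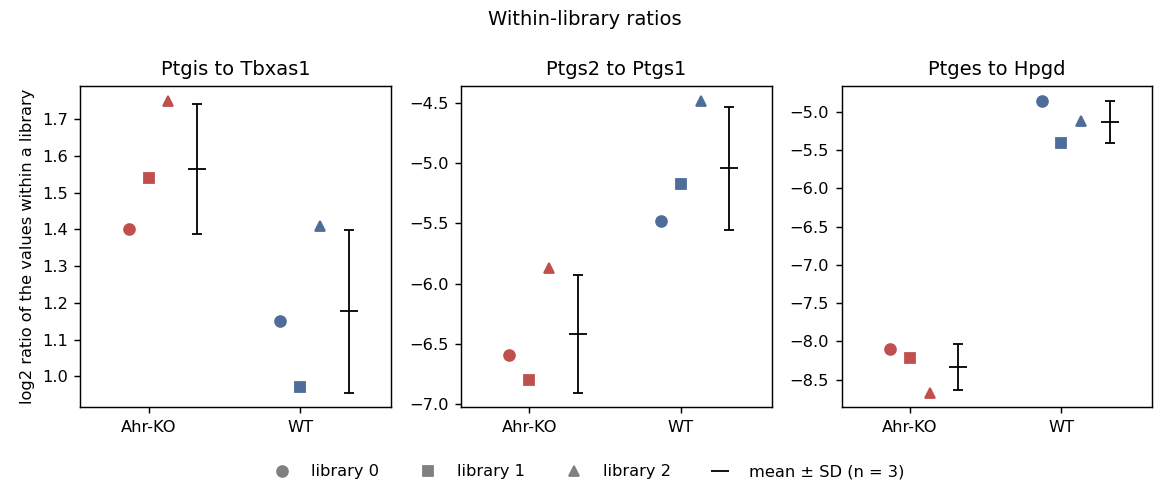
Log2 ratio of the values of 2 members within a library (y axis, a separate scale for each pair, not from 0) in Ahr-KO and WT libraries. Points are libraries and the bar is the mean ± SD of 3. The groups are apart for Ptges to Hpgd (difference of means -3.20) and Ptgs2 to Ptgs1 (-1.38) and overlap for Ptgis to Tbxas1. Ptges rests on an estimated 17 reads over the Ahr-KO libraries.

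Ptgds and Hpgds make prostaglandin D in different cells. Ptgds, the lipocalin type, stood at 40.3, 41.3 and 80.5 in Ahr-KO libraries 0, 1 and 2, against 32, 61.6 and 37.8 in WT libraries 0, 1 and 2. The groups overlapped and a single library was high in each (log2 0.28 ± 0.36, 95% interval -0.56 to 1.12, adjusted p = 0.67). Hpgds, the haematopoietic form of mast cells and some T cells and not one of the 10 members, fell in Ahr-KO lungs. It stood at 18.5, 4.13 and 5.46 in Ahr-KO libraries 0, 1 and 2, against 29, 38.6 and 62.9 in WT libraries 0, 1 and 2 (log2 -2.29 ± 0.55, adjusted p = 0.038). Its values came from few reads, an estimated 32 over the Ahr-KO libraries and 121 over the WT libraries. Its call was lost when any 1 library other than Ahr-KO library 0 was left out (highest adjusted p = 0.14). Of 6 tested mast cell and basophil markers other than Kit, which is also an endothelial marker, 3 fell (Cpa3, Ms4a2 and Fcer1a) and 0 rose. Ms4a2 and Fcer1a had an estimated 77 and 21 reads over the Ahr-KO libraries. The others overlapped between groups and differed in direction (log2 -1.47 for Tpsb2, -0.22 for Cma1 and 1.16 for Tpsab1). The summed value of the markers was 91.7 to 249.8 in Ahr-KO libraries and 239 to 671 in WT libraries. Per 1000 units of that sum, a ratio chosen after the values were seen, Hpgds stood at 74.2, 45 and 44.4 in Ahr-KO libraries 0, 1 and 2, against 43.2, 161.5 and 106 in WT libraries 0, 1 and 2, and the groups overlapped.

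Among the receptors that raise cyclic AMP, none passed the threshold. Ptger4, an E prostaglandin receptor of lymphocytes, macrophages and vessels, stood at 83.8, 36.4 and 58.7 in Ahr-KO libraries 0, 1 and 2, against 121, 108 and 117 in WT libraries 0, 1 and 2. All 3 Ahr-KO libraries lay below the WT libraries and were more widely spread. The means were 59.6 ± 23.7 in Ahr-KO and 116 ± 6.49 in WT (SD, n = 3 each). The log2 fold change of -1.02 ± 0.30 (95% interval -1.71 to -0.33) did not pass (adjusted p = 0.069). With 1 library left out it ranged from -1.30 to -0.71 with an adjusted p of 0.03 to 0.17, and passed in 1 of 6 fits, the one without Ahr-KO library 0. All 7 T cell markers fell, with sums of 823 to 1059 in Ahr-KO libraries and 1762 to 2344 in WT libraries. Per 1000 units of the T cell sum, Ptger4 stood at 79.2, 44.2 and 66.7 in Ahr-KO libraries 0, 1 and 2, against 51.6, 61.5 and 55 in WT libraries 0, 1 and 2, and the groups overlapped. Per 1000 units of the macrophage sum, it stood at 5.46, 3.88 and 5.57 in Ahr-KO libraries 0, 1 and 2, against 8.59, 7.32 and 6.73 in WT libraries 0, 1 and 2, and the Ahr-KO libraries still lay below. That sum was mostly Csf1r and Mrc1, as given with Tbxas1. Both ratios were chosen after the values were seen, and the part of these cell types in the Ptger4 value was not tested.

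Ptgir, the prostacyclin receptor of smooth muscle and platelets, stood at 98.3, 118 and 117 in Ahr-KO libraries 0, 1 and 2, against 164, 134 and 148 in WT libraries 0, 1 and 2. The groups did not overlap, yet the log2 fold change of -0.42 ± 0.17 (95% interval -0.81 to -0.02) did not pass (adjusted p = 0.16). Ptger2, the other E prostaglandin receptor of this kind, stood at 58, 33.1 and 43.7 in Ahr-KO libraries 0, 1 and 2, against 46, 54.2 and 49 in WT libraries 0, 1 and 2. Here the groups overlapped, with both the highest and the lowest value in Ahr-KO (log2 -0.18 ± 0.27, adjusted p = 0.71), and the sign turned positive after quantile normalisation (0.13).

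**Figure D4:**
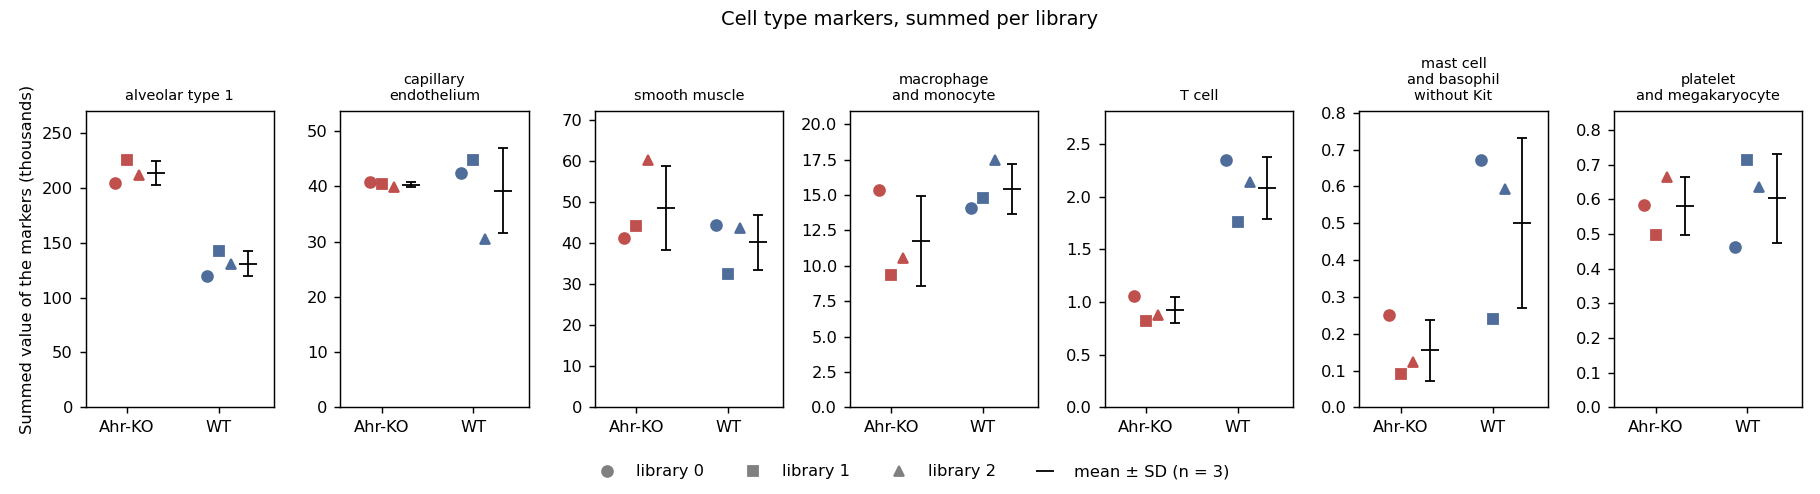
Summed normalised value of 7 marker lists per library (y axis, in units of 1000, from 0, a separate scale for each list) in Ahr-KO and WT libraries. Points are libraries and the bar is the mean ± SD of 3. Alveolar type 1 sums are higher and T cell sums lower in all 3 Ahr-KO libraries, while platelet and smooth muscle sums overlap.

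The remaining prostanoid genes were taken as a list, of which 17 were tested, 2 fell and 0 rose. Over all tested genes 6.26% fell and 4.5% rose, and a count of 2 in 17 is too small to be read against those shares. The median log2 fold change of the list was 0.08. Besides Hpgds, the gene that fell was Ptgfr, the receptor for F prostaglandins, which acts through calcium. It stood at 20.1, 24 and 19.1 in Ahr-KO libraries 0, 1 and 2, against 49, 50.1 and 61.6 in WT libraries 0, 1 and 2 (log2 -1.30 ± 0.25, adjusted p = 0.018). The groups lay apart, but the call was lost without WT library 0 or 1 or Ahr-KO library 1 or 2 (highest adjusted p = 0.07). Tbxa2r, the thromboxane receptor, stood at 135, 170.2 and 173 in Ahr-KO libraries 0, 1 and 2, against 178, 209 and 76.9 in WT libraries 0, 1 and 2, and the groups overlapped (adjusted p = 0.82). Ptger1, a calcium-coupled E prostaglandin receptor, stood at 867, 986 and 793 in Ahr-KO libraries 0, 1 and 2, against 562, 777 and 474 in WT libraries 0, 1 and 2. All its Ahr-KO libraries were above the WT libraries, but the difference did not pass (log2 0.57 ± 0.18, adjusted p = 0.088). Ptgdr2, a prostaglandin D receptor of type 2 immune cells, had a log2 fold change of 1.13 ± 0.41 (adjusted p = 0.12), and Ptger3, an E prostaglandin receptor that lowers cyclic AMP, one of -0.15 ± 0.34 (adjusted p = 0.81).

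Upstream, 3 of 18 tested genes of arachidonate release fell and 0 rose (median log2 fold change -0.22). Over all tested genes 6.26% fell, a share against which this count too is too small to be read. Pla2g2a, a secreted phospholipase, stood at 78.2, 52.9 and 66.8 in Ahr-KO libraries 0, 1 and 2, against 409.9, 409 and 621 in WT libraries 0, 1 and 2. The groups were far apart (log2 -2.83 ± 0.23, 7.13-fold lower, adjusted p = 0.0016), and the call survived the loss of any 1 library. Pla2g4a, the cytosolic phospholipase that feeds cyclooxygenases, stood at 104, 57.9 and 77.8 in Ahr-KO libraries 0, 1 and 2, against 189, 190.5 and 294 in WT libraries 0, 1 and 2 (log2 -1.49 ± 0.27, adjusted p = 0.016). Its groups did not overlap, and the call was lost without Ahr-KO library 1 or 2 (highest adjusted p = 0.07). Pla2g2f, another secreted phospholipase, also fell, from an estimated 25 reads over the Ahr-KO libraries and 77 over the WT libraries (log2 -1.46 ± 0.36, adjusted p = 0.042). Its call was lost when any 1 library other than WT library 2 was left out (highest adjusted p = 0.13). Sums of fibroblast markers, of which 2 of 8 fell and 0 rose, were 30088 to 37674 in Ahr-KO libraries and 47510 to 60003 in WT libraries. The 2 were the collagen genes Col1a1 and Col3a1, and Col3a1 was the largest part of the sums (means of 20985 in Ahr-KO and 32966 in WT). The other 6 overlapped between groups, among them Pdgfra (log2 0.14 ± 0.25), so the fibroblast sums mainly show these collagens. Sums of B cell markers, of which 4 of 6 fell and 0 rose, were 527 to 659 in Ahr-KO libraries and 1098 to 1696 in WT libraries. Neither pair of ranges overlapped, nor did the T cell sums given with Ptger4, and none of these markers was at 0 in all libraries. Their part in the phospholipase values was not tested.

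In the leukotriene and lipoxygenase branch, which competes for the same arachidonate, 2 of 16 tested genes fell and 0 rose (median log2 fold change -0.21). This count is likewise too small to be read against the 6.26% of all tested genes that fell. Alox15, a lipoxygenase of macrophages and eosinophils, stood at 149, 85.1 and 139 in Ahr-KO libraries 0, 1 and 2, against 376, 443 and 547 in WT libraries 0, 1 and 2. The groups lay apart (log2 -1.89 ± 0.24, 3.70-fold lower, adjusted p = 0.006) and the call survived the loss of any 1 library. Alox5, which starts leukotriene synthesis in myeloid cells, stood at 838, 454 and 611 in Ahr-KO libraries 0, 1 and 2, against 997, 1202 and 1171 in WT libraries 0, 1 and 2 (log2 -0.86 ± 0.21, adjusted p = 0.039). Its call was lost when any 1 library other than Ahr-KO library 0 was left out (highest adjusted p = 0.13). The macrophage marker sums given with Tbxas1 were lower in 2 of the 3 Ahr-KO libraries than in every WT library, and their part in the lipoxygenase values was not tested.

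Over all tested genes 4.5% rose, a share against which the count that follows is too small to be read. Downstream of the cyclic AMP receptors, 2 of 26 tested genes rose and 0 fell (median log2 fold change 0.07). They were the adenylyl cyclase gene Adcy6 (3269.9 ± 262 in Ahr-KO and 2367 ± 218 in WT, SD, n = 3 each, log2 0.47 ± 0.10, adjusted p = 0.028) and Rapgef4, a cyclic AMP-activated exchange factor (1335 ± 68.8 in Ahr-KO and 946 ± 137 in WT, SD, n = 3 each, log2 0.51 ± 0.12, adjusted p = 0.039). Both calls were lost after quantile normalisation (adjusted p = 0.062 and 0.055) and with equal library totals (0.05 and 0.066). The call of Adcy6 also ended when Ahr-KO library 1 or 2, or WT library 0, was dropped (highest adjusted p = 0.1), and that of Rapgef4 when any library but WT library 2 was dropped (highest adjusted p = 0.13).

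**Figure D5:**
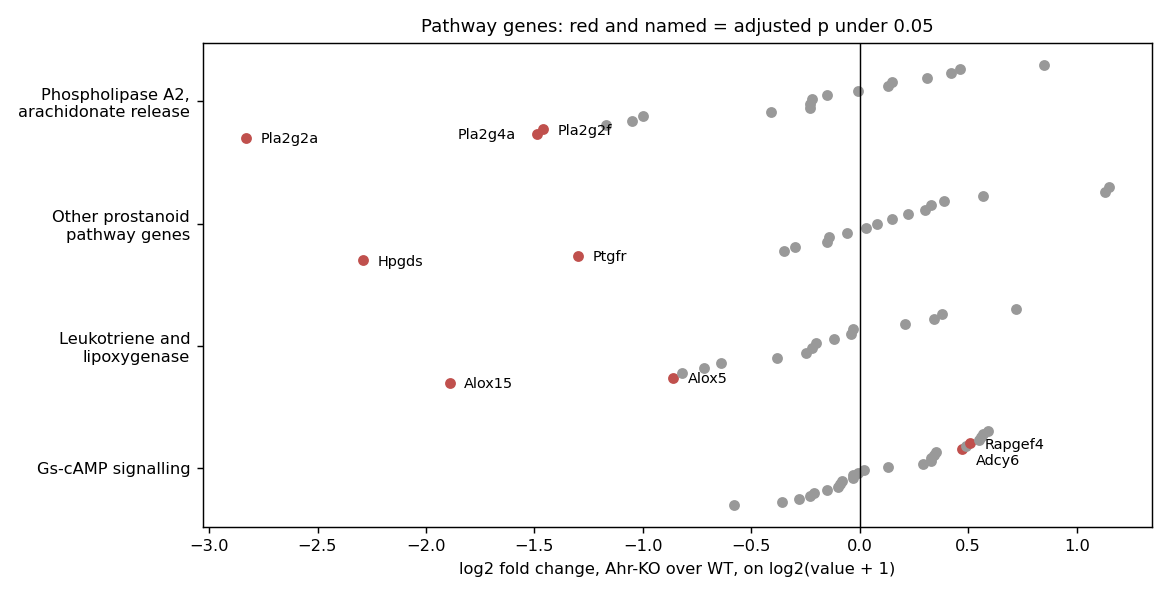
Log2 fold change (x axis, Ahr-KO over WT on log2(value + 1)) of the tested genes of 4 lists around the members, 1 point a gene, spread vertically by rank within a list. Red, named points passed the threshold, with Pla2g2a at -2.83, Hpgds at -2.29 and Alox15 at -1.89 the lowest.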

How the data were processed

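Bulk RNA-seq was made from 6 total lung samples, 3 Ahr-KO and 3 WT. Per the labels' protocols, Trizol lysates were purified on columns with DNase treatment. The submitters' processing notes name FastQC and the build rn6. The sources used here do not name the aligner, counter, annotation or strandedness, so reads of overlapping genes may be shared. The authors deposited 1 normalised signal per gene symbol and library. Between 96.4% and 97.9% of the values above 0 were a whole number of steps of 1 size per library, to within 0.05 of a step, and dividing by that step gave the estimated reads. Because the rest were fractions, the edgeR alternative planned for whole reads was not run. Limma-voom on the estimated reads was run as an alternative only. Column names give the group and a number from 0 to 2, whereas sample titles count from 1, so columns were assigned to groups only. There were 0 columns left unused. No pair of libraries agreed within sampling noise (lowest chi-square per gene 15.9).

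Genes reaching a value of 1 in 3 or more libraries were tested with limma 3.58.1 (R 4.3.3) on log2(value + 1), with a mean-variance trend, genotype as the single term and 2-sided p-values adjusted by Benjamini-Hochberg. With 3 against 3 libraries an exact permutation test cannot give a 2-sided p below 0.1, so none is reported. The code was tested on simulated data. The members, pathway lists and marker lists were chosen with earlier results of these data known. Named genes are the 10 members, every pathway list gene past the threshold, and the 3 genes closest in pattern to each called member. Slco2a1, Ptges2, Ptges3, Tbxa2r, Ptger1, Ptger3 and Ptgdr2 were added after values were seen, to complete the uptake, synthesis and receptor steps. Alternatives were other scalings, models, filters and pseudocounts, the library number as a block and left-out libraries.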

Additional observations from a re-analysis of the deposited data

How the results depend on the processing

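The rise of Hpgd kept its direction in all 16 alternatives (log2 1.13 to 1.63) and its call in 15 (adjusted p = 0.007 to 0.052). The exception was the fit without both libraries numbered 2, in which 0 members were called higher. The number of members called lower was 0, but 1 with equal library totals and 3 with limma-voom, and 0 to 2 when 1 library was left out. Pla2g2a and Alox15 kept their calls in all 16. Across the 16, the other prostanoid list had 0 to 2 genes higher and 0 to 2 lower, arachidonate release 1 to 3 lower, the lipoxygenase branch 1 to 4 lower and cyclic AMP signalling 0 to 5 higher and 0 to 2 lower.

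Over all genes, 692 were higher and 963 lower. With equal library totals 449 were higher and 1314 lower, and with limma-voom 436 were higher and 1290 lower, so the balance depended on the scaling. Limma without the trend called 301 higher. The fit without both libraries numbered 2 called 268 higher and 285 lower. Leaving out 1 library gave 135 to 930 higher and 272 to 920 lower, the fewest without Ahr-KO library 2.

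The replicate block, the library number as a term, called 334 higher and 565 lower. It kept Hpgd (adjusted p = 0.023) and ended the calls of Hpgds, Ptgfr, Pla2g2f, Alox5, Adcy6 and Rapgef4 (adjusted p = 0.055 to 0.086). Same-numbered libraries did not deviate together (correlations of -0.10, 0.0687 and -0.0738), so the numbers were not taken as pairs.

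Log2 fold changes near 0 changed sign: Ptgds without both libraries numbered 2 (-0.12) and Ptger2 after quantile normalisation (0.13). With 1 library left out, Ptgs1 ranged from -0.03 to 0.02, Ptgis from -0.27 to 0.08, Ptgds from -0.04 to 0.55 and Ptger2 from -0.38 to 0.02. The causes of these changes were not tested. Depth limits Ptges and Ptgs2 most, since they rest on the fewest reads of the members.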
